A study of Mus musculus with 4 samples.

Results

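The Obox genes (oocyte specific homeobox) encode a family of homeodomain transcription factors that lie together on mouse chromosome 7. All rows of the deposited gene tables whose symbol starts with Obox were taken, which gave 6 genes of 24411 listed. They were Obox1, Obox2 and Obox5, which the selection rule classed as stored by the mother, Obox3 and Obox6, which it classed as zygotic, and Obox7, which it did not class. All 6 passed the filter on low counts. Polyadenylated RNA had been sequenced from in vitro fertilized ICR mouse embryos at the late two-cell stage, 36 h post-insemination (hpi), in 2 libraries per group and 10 pooled embryos per library. Control embryos were cultured in KSOM medium with DMSO, the solvent of the inhibitor, and treated embryos in the same medium with 6 µM 10074-G5, an inhibitor of the dimer that MYC forms with MAX. Treatment began at 6 hpi by the series design, but at 3 hpi by the sample labels. No oocytes or earlier embryos were analysed here, so the maternal and zygotic classes could not be checked against the time course of each gene.

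A homeodomain is a DNA-binding fold of 3 helices, the last of which lies in the major groove of the DNA. Oocytes store mRNAs that are degraded after fertilization, while zygotic genome activation (ZGA) produces new transcripts, first weakly in the one-cell embryo and then strongly in the late two-cell embryo. Members of the Obox family are found on both sides of this hand-over, as mRNAs loaded into the egg and as early products of the embryonic genome, and are known as factors that support ZGA. Levels measured at a single time in pools of whole embryos cannot tell a stored mRNA that persisted from one that was newly made, nor a change in every embryo from a change in a part of them.

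The sequences of the members are shown because the near-identity of some of them bears on how their reads could be counted. The homeobox, the part of the coding sequence that encodes the homeodomain, was read from GENCODE M21 transcripts (GRCm38). These are linked by accession to the RefSeq transcripts that were counted. The 18 bases in capitals encode, in Obox1, Obox5, Obox3 and Obox6, the start of the DNA-contacting part of the third helix, and in Obox2 they mark the aligned bases. Each stretch is exonic sequence split by 1 intron, and all of it is coding except the end of that of Obox2. The positions are chr7:15555567-15556192 (Obox1, plus strand), chr7:15397250-15397875 (Obox2, plus strand), chr7:15757941-15758580 (Obox5, plus strand), chr7:15626284-15626933 (Obox3, minus strand) and chr7:15833909-15834517 (Obox6, minus strand).
Obox1: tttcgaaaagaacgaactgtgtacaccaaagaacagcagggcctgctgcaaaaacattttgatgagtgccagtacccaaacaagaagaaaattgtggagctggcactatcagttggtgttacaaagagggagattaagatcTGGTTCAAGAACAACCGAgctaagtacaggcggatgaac
Obox2: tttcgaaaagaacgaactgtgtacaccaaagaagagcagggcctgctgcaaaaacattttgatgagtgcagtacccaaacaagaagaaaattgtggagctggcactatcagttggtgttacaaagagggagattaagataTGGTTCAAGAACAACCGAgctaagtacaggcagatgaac
Obox5: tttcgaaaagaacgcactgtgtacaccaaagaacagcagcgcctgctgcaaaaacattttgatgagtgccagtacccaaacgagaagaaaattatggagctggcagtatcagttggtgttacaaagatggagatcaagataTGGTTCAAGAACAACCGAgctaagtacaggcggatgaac
Obox3: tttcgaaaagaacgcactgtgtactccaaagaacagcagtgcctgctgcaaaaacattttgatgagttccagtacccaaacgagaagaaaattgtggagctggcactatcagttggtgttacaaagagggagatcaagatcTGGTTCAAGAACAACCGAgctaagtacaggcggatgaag
Obox6: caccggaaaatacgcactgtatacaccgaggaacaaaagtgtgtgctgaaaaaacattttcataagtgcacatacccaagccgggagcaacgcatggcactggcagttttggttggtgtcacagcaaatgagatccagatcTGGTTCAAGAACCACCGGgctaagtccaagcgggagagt

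Obox1, Obox5, Obox3 and Obox7 keep the homeobox at codons 94 to 153 of their coding sequence, and Obox6, whose protein starts with a longer stretch before it, at codons 145 to 204. In the 5 members other than Obox2, the bases after the first 6 capitals form a lysine codon, a residue known from homeodomains that read the DNA word GGATTA. Over the homeobox, Obox1 and Obox2 were identical at 176 of 180 aligned bases and Obox3 and Obox5 at 172. Obox6 stood apart from the others, with 128 bases shared with Obox1, 131 with Obox5 and 129 with Obox3. The stretch of Obox2 that aligned to the homeobox of Obox1 had 179 bases instead of 180, and the coding sequence annotated for Obox2 in this genome, of 456 bases, ended 177 bases after the start of that stretch. It therefore leaves the reading frame of the other members within the homeobox. These letters come from the reference genome and not from the ICR embryos.

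The files also show that reads of Obox1 and Obox2 were not fully told apart. Of all 150-base windows (the length of a read) of the GENCODE transcripts, 31.4% of those of Obox1 occurred in Obox2, and 32.7% of those of Obox2 occurred in Obox1. Most of these transcripts were longer than the counted ones, so some windows lay outside the counted sequence. Their lengths were 1512 against 1217 bases for Obox1, 1459 against 1327 for Obox2 and 1831 against 1312 for Obox5. They were 1476 against 1264 for Obox7, 1344 against 1336 for Obox6, and 1603 in both for Obox3. In all 4 libraries the expected counts of both genes were not whole numbers, yet their sums were 5232 and 11857 in DMSO replicates 1 and 2 and 15181 and 15471 in inhibitor-treated replicates 1 and 2, whole to the 2 decimals given. The share of the sum assigned to Obox1 lay between 60.8% and 69.0%, and the separate values of this pair are uncertain. Counts of the other 4 members were whole in every library. No window of Obox5, Obox6 or Obox7 was shared with another member or with the 48 Obox pseudogene transcripts of the annotation, while 10.7% of the windows of Obox3 occurred in a pseudogene. Only exact matches of reference sequence were counted. Whether reads of the ICR embryos with mismatches were assigned to the wrong member was not tested.

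The RefSeq promoter windows (GRCm38.p6, from 250 bases before to 50 after the annotated start) were matched for 5 members, Obox1, Obox2, Obox3, Obox5 and Obox7. A stretch of 94 bases upstream of the start is shown for Obox1 (chr7:15547156-15547249, plus strand), Obox5 (chr7:15750257-15750350, plus strand) and Obox3 (chr7:15639796-15639889, minus strand). A maternal pair and a zygotic member share it. Capitals mark the letters TATATAA, which resemble the core promoter box of many genes. A short run of bases in the stretch, used to locate it, was also found in the windows of Obox7 and Obox2. In Obox7 this run lay at -80 from the annotated start, with TATATAA at -5. In Obox2 it lay at 3, after the start, and no TATATAA was found in the window. The window ends 50 bases after the start, before the place where TATATAA would lie at the spacing seen in Obox7. Whether Obox2 has the box there was not tested. Identity over the whole stretch was not measured for Obox7 or Obox2.
Obox1: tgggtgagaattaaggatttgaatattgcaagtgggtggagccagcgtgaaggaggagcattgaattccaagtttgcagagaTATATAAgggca
Obox5: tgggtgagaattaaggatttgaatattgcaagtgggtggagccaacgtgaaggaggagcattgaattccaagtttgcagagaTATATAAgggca
Obox3: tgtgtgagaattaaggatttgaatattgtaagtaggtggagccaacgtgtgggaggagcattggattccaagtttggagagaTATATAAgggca

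This stretch was identical at 93 of 94 bases between Obox1 and Obox5, at 87 between Obox3 and Obox5 and at 86 between Obox1 and Obox3. Over both strands of the whole windows, TATATAA was found in those of Obox1, Obox3, Obox5 and Obox7 and in 3.24% of all 32851 promoter windows. The E-box CACGTG, the preferred word of MYC and MAX, was found in 0 of the 5 Obox windows and in 7.15% of all windows. Obox6 had no window to search, and 5 windows are too few to tell their share from that of all windows. The word GGATTA was found in the window of Obox3 alone among the 5, and in 7.06% of all windows.

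Before the results by gene, the libraries themselves differed. The expected counts summed to between 18206584 and 20718690 per library. Replicates lay over 2-fold apart for 42.2% of the tested genes in the DMSO group, against 20.6% in the inhibitor-treated group, with DMSO replicate 1 farthest from the other libraries for most members of the family. All 7 markers of oocyte and embryo and all 6 markers of the two-cell embryo had a mean of at least 1 FPKM, a level scaled to transcript length and library depth. The summed level of the two-cell markers was 354 FPKM in DMSO replicate 1 and between 1509 and 2336 FPKM in the other 3 libraries. Of 10 markers of cumulus and granulosa cells, the somatic cells around the egg, Ptx3, Foxl2, Amh and Inhba were at 0 in every library, and the list summed to between 1.23 and 7.01 FPKM. Of 6 sperm markers, Prm1, Tnp2 and Smcp were at 0, and the list summed to between 2.7 and 4.44 FPKM in the controls and between 9.29 and 16.1 FPKM in the treated libraries. The part of these somatic and sperm transcripts in the Obox values was not tested. Blastocyst markers summed to between 2.99 and 12.8 FPKM.

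Differences were tested in all 13549 genes that passed the filter on low counts with edgeR's quasi-likelihood test. At |log2FC| > 1 and an adjusted p under 0.05, this test called 0 genes higher and 0 genes lower in inhibitor-treated embryos, so that 0% of all genes and 0 of the 6 Obox genes were called in either direction. An unadjusted p under 0.05 was found for 2013 genes (14.9%), with 4.72% of all tested genes higher and 10.1% lower. In the family, Obox5 was among the higher and Obox6 among the lower genes at this level. With 2 libraries against 2, an exact two-sided permutation test of a single gene cannot give a p under 0.333. DESeq2 on the same genes called 95 genes higher (0.701%) and 471 lower (3.48%), and Obox5 was 1 of the higher genes. With transcript lengths in the model it called 83 of 18208 genes higher (0.456%), Obox5 among them, and 429 lower (2.36%). Whatever the p, a log2FC above 1 was found for 18.1% of the genes, in the family for Obox5, and one below -1 for 17.8%, in the family for Obox6. A log2FC above 0 was found for 5 of the 6 Obox genes, Obox3 by a margin that other scalings turned, and for 51.5% of all genes.

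Obox5, on chromosome 7 of GRCm38.p6 from 15750370 to 15759274, showed the largest difference of the 6 genes. Its level was 487 and 1895 FPKM in DMSO replicates 1 and 2, and 5175 and 4318 FPKM in inhibitor-treated replicates 1 and 2. Both treated libraries lay above both controls, and the controls lay 3.89-fold apart on this scale. Among all 24411 listed genes, Obox5 ranked 317 and 44 by FPKM in DMSO replicates 1 and 2, and 9 and 11 in inhibitor-treated replicates 1 and 2. In CPM, counts scaled to library size with TMM factors, the controls averaged 1231 ± 925 (SD, n = 2) and the treated libraries 4688 ± 670 (SD, n = 2). The edgeR fit put the log2FC of Obox5 at 1.93 (standard error 0.60), with an unadjusted p of 0.013 and an adjusted p of 0.333 (Benjamini-Hochberg). DESeq2 gave 1.94 (standard error 0.52, adjusted p = 0.0112).

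Obox6, the last member of the cluster (15833250 to 15839679), differed in the opposite direction. Its level was 2010 and 1627 FPKM in DMSO replicates 1 and 2, and 787 and 1103 FPKM in inhibitor-treated replicates 1 and 2. The groups did not overlap, and the control libraries were 1.24-fold apart by FPKM and 1.47-fold apart by CPM. They were closer than for Obox5, at 3.89-fold by FPKM and 3.27-fold by CPM. By mean FPKM in control embryos, only 55 listed genes were higher than Obox6. The controls averaged 2045 ± 550 CPM (SD, n = 2) and the treated libraries 952 ± 211 CPM (SD, n = 2), so that control was 2.15-fold higher. The log2FC of Obox6 was -1.10 (standard error 0.41), with an unadjusted p of 0.0301 and an adjusted p of 0.333 by edgeR, and an adjusted p of 0.0752 by DESeq2.

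Obox3, the other zygotic member (15625306 to 15639777), gave a different picture. Its level was 671 and 701 FPKM in DMSO replicates 1 and 2 and 704 and 812 FPKM in inhibitor-treated replicates 1 and 2. These FPKM groups were separated only by the gap from 701 to 704, and on the CPM scale they overlapped. Obox3 averaged 956 ± 87.3 CPM (SD, n = 2) in the controls and 957 ± 82.3 CPM (SD, n = 2) in the treated libraries. The log2FC was 0.00 (standard error 0.36, adjusted p = 0.999 by edgeR), and its sign changed with the scaling, from -0.01 with DESeq2's size factors to 0.15 with library totals. Differences within this error of 0 were not detectable. The DMSO replicates of Obox3, which differed by 0.19 on the log2 CPM scale, were the closest of the 6 genes, against 1.71 for Obox5.

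The other maternal members, Obox1 (15547257 to 15556846) and Obox2 (15388851 to 15398545), were lower in level than Obox5. Obox1 had 187 and 423 FPKM in DMSO replicates 1 and 2 and 536 and 520 FPKM in inhibitor-treated replicates 1 and 2. Obox2 had 93.8 and 244 FPKM in DMSO replicates 1 and 2 and 216 and 280 FPKM in inhibitor-treated replicates 1 and 2. The groups of Obox1 did not overlap, whereas those of Obox2 did, since DMSO replicate 2 lay between the treated libraries. The log2FC was 0.70 (standard error 0.42, adjusted p = 0.43 by edgeR) for Obox1 and 0.47 (standard error 0.45, adjusted p = 0.622) for Obox2. With the counts of this read-sharing pair summed, the log2FC was 0.62 (standard error 0.44, adjusted p = 0.496 by edgeR).

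Obox7, which lies apart from the others (14659708 to 14665996), was the lowest member. It had 26.6 and 64.7 FPKM in DMSO replicates 1 and 2 and 62.3 and 80.4 FPKM in inhibitor-treated replicates 1 and 2. The groups overlapped, and the log2FC was 0.55 (standard error 0.46, adjusted p = 0.557 by edgeR). Across the libraries Obox7 was closest to Obox2, with a root mean square difference of 0.0499 between their log2 CPM values after each was centred on its mean. This difference was 0.166 between Obox1 and Obox7, and 1.83 between Obox5 and Obox6, the largest of all pairs. On the CPM scale, the groups of 2 of the 6 members did not overlap with treated embryos higher (Obox1 and Obox5), against 28.9% of all tested genes, and those of 1 with treated embryos lower (Obox6), against 28.3%. On the FPKM scale Obox3 joined the former by the narrow gap given above.

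**Figure D1:**
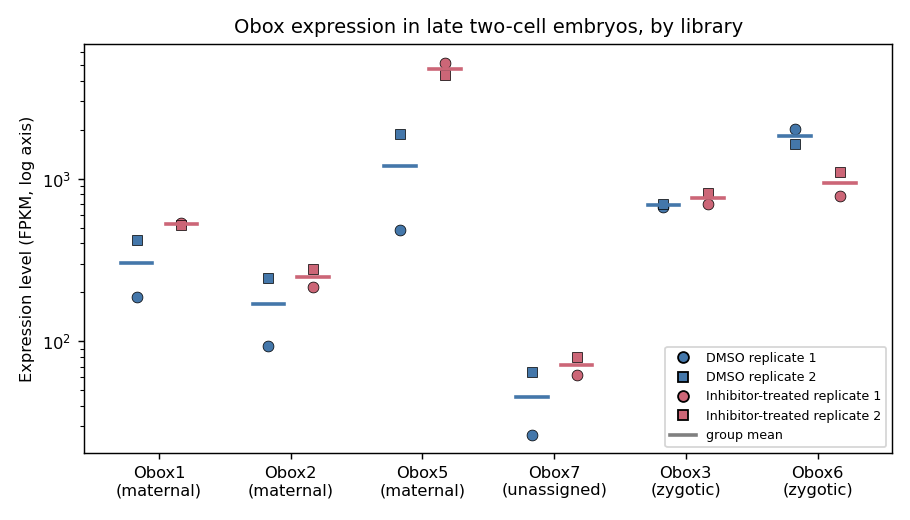
FPKM (log axis) of the 6 Obox genes in each library, with circles for replicate 1, squares for replicate 2 and bars for group means. Obox5 was between 4318 and 5175 FPKM in the treated libraries against 487 and 1895 in the controls, Obox6 was lower in both treated libraries, and Obox3 lay between 671 and 812 in all 4.

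The order of the members by level per transcript length differed between libraries. In DMSO replicate 1 the order by FPKM was Obox6, Obox3, Obox5, Obox1, Obox2 and Obox7. In DMSO replicate 2 it was Obox5, Obox6, Obox3, Obox1, Obox2 and Obox7, and this order was the same in both treated libraries. The ratio of Obox5 to Obox6 was 0.242 and 1.16 in DMSO replicates 1 and 2 and 6.58 and 3.92 in inhibitor-treated replicates 1 and 2. In control embryos Obox5 (1191 ± 995 FPKM, SD, n = 2) and Obox6 (1819 ± 271 FPKM, SD, n = 2) could not be ranked beyond their spread. The group means of Obox1 (305 ± 167 FPKM) and Obox2 (169 ± 106 FPKM) also lay within their spread, although Obox1 was above Obox2 in each of the 4 libraries. In treated embryos Obox6 (945 ± 223 FPKM, SD, n = 2) and Obox3 (758 ± 76.2 FPKM) lay within their spread, and Obox5 (4747 ± 606 FPKM) lay above both.

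Summed over its members, the family had 3475 and 4955 FPKM in DMSO replicates 1 and 2 and 7481 and 7113 FPKM in inhibitor-treated replicates 1 and 2. It took 0.381% and 0.532% of all expected counts in the controls and 0.794% and 0.756% in the treated libraries. Obox5 alone made up 14% and 38.2% of the family's FPKM in DMSO replicates 1 and 2 and 69.2% and 60.7% in inhibitor-treated replicates 1 and 2. Obox6 made up 57.8% and 32.8% in the controls and 10.5% and 15.5% in the treated libraries. The family sum was larger in both treated libraries than in both controls, and Obox5 was the largest section of it there.

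**Figure D2:**
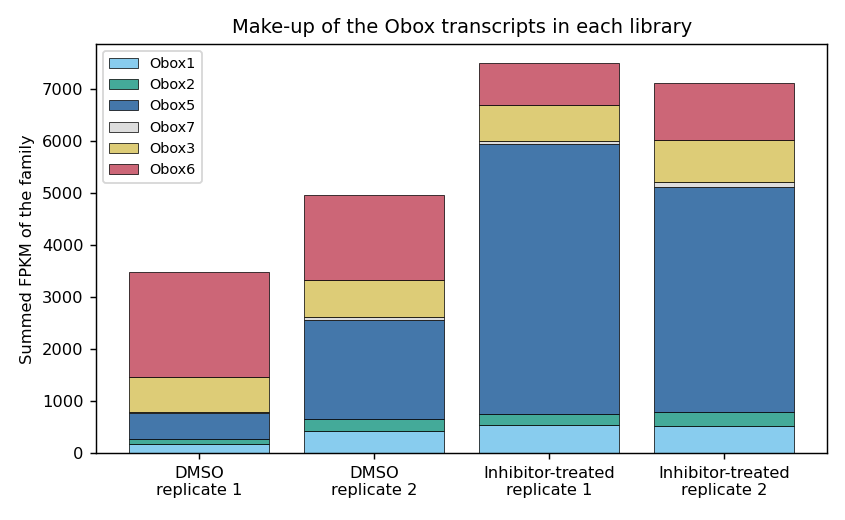
Stacked FPKM of the Obox genes in each library, in linear units from 0. The sum was 3475 and 4955 FPKM in the controls and 7481 and 7113 FPKM in the treated libraries, and Obox5 was 14% of the bar in DMSO replicate 1 and 69.2% in inhibitor-treated replicate 1.

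The contrast of the maternal with the zygotic class was described without a test. Obox1, Obox2 and Obox5 together had 768 and 2562 FPKM in DMSO replicates 1 and 2 and 5927 and 5118 FPKM in inhibitor-treated replicates 1 and 2. Obox3 and Obox6 together had 2681 and 2329 FPKM in the controls and 1491 and 1914 FPKM in the treated libraries. The zygotic class was 77.7% and 47.6% of the sum of both classes in DMSO replicates 1 and 2, and 20.1% and 27.2% in inhibitor-treated replicates 1 and 2. The mean log2FC of the zygotic members minus that of the maternal members was -1.58, and leaving out DMSO replicate 1 gave -0.89 while leaving out DMSO replicate 2 gave -2.52. All 3 maternal members had a log2FC above 0, and the zygotic members had 0.00 (Obox3) and -1.10 (Obox6). Differences between members of a class were not tested. By FPKM, DMSO replicate 1 was the lowest of the 4 libraries for the maternal Obox1, Obox2 and Obox5, for the unclassed Obox7 and, narrowly, for the zygotic Obox3, and it was the highest for Obox6. In CPM, DMSO replicate 1 was instead narrowly the highest for Obox3. Its CPM was 1018 and 894 in DMSO replicates 1 and 2 and 899 and 1015 in inhibitor-treated replicates 1 and 2.

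Each library was left out in turn, in which case a lone sample was assumed to vary like the pair of the other group. For that reason p-values of these fits are not given. Without DMSO replicate 1, the log2FC was 1.33 (standard error 0.22) for Obox5 and -0.78 (standard error 0.23) for Obox6. Without DMSO replicate 2 it was 3.02 for Obox5 and -1.36 for Obox6. Obox5 stayed above and Obox6 below 0 in all 4 cases. Obox1 (0.32 without DMSO replicate 1 and 1.23 without DMSO replicate 2), Obox2 (0.02 and 1.14) and Obox7 (0.14 and 1.15) moved with these libraries.

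**Figure D3:**
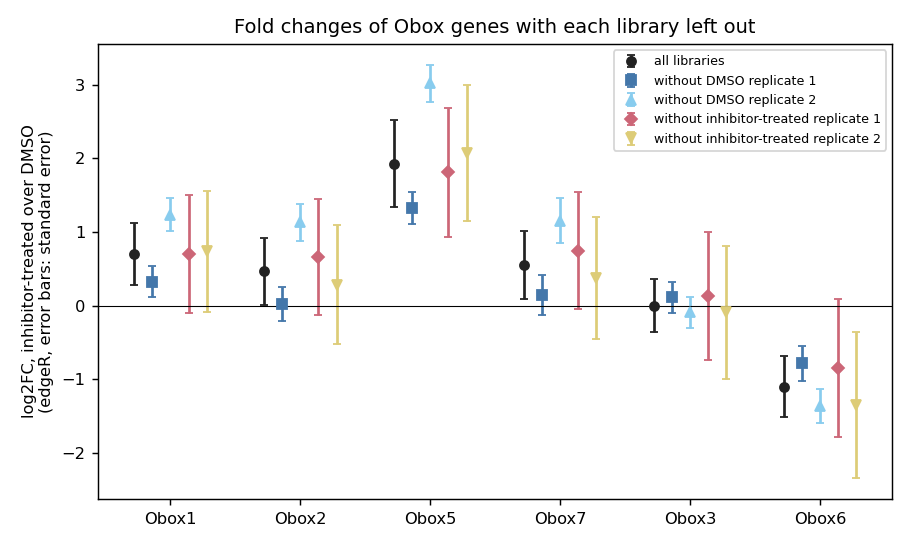
log2FC of each Obox gene by edgeR with all libraries and with each library left out, and standard errors as bars. The values of Obox5 lay between 1.33 and 3.02 and those of Obox6 between -1.36 and -0.78, while those of Obox3 lay on both sides of 0.

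Along the chromosome, the 6 genes span 1179972 bases from Obox7 to Obox6, with 45 Obox pseudogenes of the RefSeq annotation on the same chromosome, of which the files list 0 by symbol or synonym. Going up the coordinates the order is Obox7, Obox2, Obox1, Obox3, Obox5 and Obox6. The nearest listed gene on the Obox7 side was Vmn1r90, a vomeronasal receptor gene (14561242 to 14562171), with at most 0.04 FPKM. On the Obox6 side it was Crx, a homeobox gene of photoreceptors (15865947 to 15879955), with at most 0.48 FPKM. Next to Crx lies Crxos (15882617 to 15904030), a homeobox gene transcribed opposite to it. Crxos had 4200 and 2400 FPKM in DMSO replicates 1 and 2 and 1237 and 1574 FPKM in inhibitor-treated replicates 1 and 2, a higher level than Obox6 in every library. Its groups did not overlap, and its log2FC was -1.43 (standard error 0.47, unadjusted p = 0.0169, adjusted p = 0.333 by edgeR). Obox5 and Obox6 are thus neighbours with values on opposite sides of 0, and Crxos lay on the side of Obox6.

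**Figure D4:**
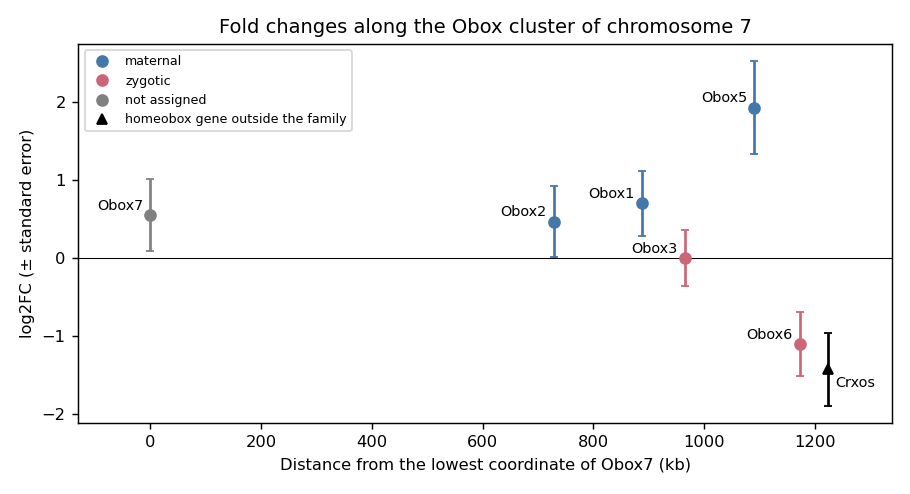
log2FC (± standard error) against the distance in kb from the lowest coordinate of Obox7 for the 6 Obox genes and Crxos. Obox5 (1.93) and Obox6 (-1.10) adjoin each other, and Crxos (-1.43) lies beyond Obox6.

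Of 41 other homeobox genes of oocytes and early embryos written down, 38 were listed and 29 tested. By edgeR 0 of them were called, 3 had an unadjusted p under 0.05 and were higher and 1 was lower, beside 4.72% and 10.1% of all tested genes. Their median log2FC was 0.10, against 0.04 for all tested genes, and became -0.06 when inhibitor-treated replicate 2 was left out. The most abundant were Crxos and Cphx2, a homeobox gene of the early embryo, which had 203 and 185 FPKM in DMSO replicates 1 and 2 and 130 and 133 FPKM in inhibitor-treated replicates 1 and 2 (log2FC -0.71, standard error 0.36, adjusted p = 0.371 by edgeR).

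Of 30 regulators linked with ZGA, all were tested and 0 called, and 2 with an unadjusted p under 0.05 were higher and 7 lower, where all tested genes had 4.72% and 10.1%. Their median log2FC was -0.32, and became -0.16 when DMSO replicate 1 was left out and -0.58 when DMSO replicate 2 was. The most abundant were Dppa4, a chromatin factor that acts with Dppa2, and Zscan4f, a zinc finger gene of the two-cell embryo. Dppa4 had 1290 and 648 FPKM in DMSO replicates 1 and 2 and 252 and 383 FPKM in inhibitor-treated replicates 1 and 2 (log2FC -1.79, standard error 0.51, adjusted p = 0.333 by edgeR). Zscan4f had 49.3 and 347 FPKM in the controls and 900 and 553 FPKM in the treated libraries (log2FC 1.83, standard error 0.77, adjusted p = 0.334). Dppa4 therefore lay on the side of Obox6, and Zscan4f on the side of Obox5. How far reads of Zscan4f could be told from those of other Zscan4 genes was not tested.

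Maternal transcripts give the setting for Obox1, Obox2 and Obox5. Of 37 maternal transcripts written down, all were tested, 31 were higher and 6 lower in treated embryos, 9 of the higher and 1 of the lower had an unadjusted p under 0.05, and 0 were called. Among all tested genes 51.5% were higher, and 4.72% were higher and 10.1% lower at that p. Their median log2FC was 0.74 (0.42 when DMSO replicate 1 was left out, 1.68 when DMSO replicate 2 was), and the log2FC of Obox1 was 0.70. With each gene centred on its own mean, the list had a median log2 CPM of -1.12 and 0.03 in DMSO replicates 1 and 2, and of 0.58 and 0.46 in inhibitor-treated replicates 1 and 2. The centred values of Obox5 were -1.93, -0.23, 1.23 and 0.93 in the same order, and those of Obox1 were -0.85, 0.08, 0.42 and 0.35. The most abundant were Dppa3, a factor that protects the DNA methylation of the egg genome, and Tcl1, a coactivator of AKT kinase. In the edgeR fit the log2FC was -0.89 for Dppa3 (standard error 0.46, adjusted p = 0.384) and 1.28 for Tcl1 (standard error 0.49, adjusted p = 0.333).

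Transcripts of the two-cell stage were also set beside the zygotic members. Of 43 written down, 39 were listed and tested, and 27 were higher and 12 lower in treated embryos. By edgeR 2 of the higher and 5 of the lower had an unadjusted p under 0.05 and 0 were called, beside 51.5% higher at any p and 4.72% higher and 10.1% lower at this p among all tested genes. Their median log2FC was 0.71, but 0.22 when DMSO replicate 1 was left out and 1.23 when DMSO replicate 2 was, and their centred median log2 CPM was -0.84 in DMSO replicate 1 and between 0.20 and 0.33 in the other libraries. Obox3 had a log2FC of 0.00 and Obox6 of -1.10. Gm5662 and AF067063, the most abundant of the list, had log2FC values of 0.94 (standard error 0.43, adjusted p = 0.35 by edgeR) and -0.20 (standard error 0.38, adjusted p = 0.812). Both belong to families of near-identical copies, and their counts are uncertain.

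Genes outside the family whose centred log2 CPM over the 4 libraries lay nearest to each member were named as a description, since 4 points allow many close matches among 10536 genes. Nearest to Obox5 were Daw1 and 1700027A15Rik, with root mean square differences of 0.0484 and 0.0595. Nearest to Obox6 were Zbtb17, which encodes the MYC partner MIZ1, and Srek1, a splicing regulator, at 0.00916 and 0.0242. Zbtb17 itself was a low gene, with 4.83 and 3.84 FPKM in DMSO replicates 1 and 2 and 1.86 and 2.59 FPKM in inhibitor-treated replicates 1 and 2. Pard3 and Swi5 were nearest to Obox1, Prkch and Lnx2 to Obox2, Zfp518a and Fam20b to Obox3, and Btbd19 and Ercc4 to Obox7, at differences between 0.00746 and 0.0349.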

How the data were processed

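RNA from late two-cell embryos was measured in 4 libraries, grouped by their labels into DMSO and inhibitor-treated embryos (2 each). Each library is a separate pool of 10 embryos and the study calls them biological replicates. The authors used a SMART-Seq kit on polyadenylated RNA, aligned read pairs to mm10 with STAR and computed levels with RSEM (STAR 2.7.10 and RSEM 1.3.3 in the submitters' processing notes). The paper reports that only reads mapped uniquely were kept for later steps. The counts of Obox1 and Obox2, not whole while their sums were, show that some reads were still divided between these genes. How this step was run was not tested. The expected counts deposited for each gene are not normalized. The TPM and FPKM deposited by the authors are scaled to the effective transcript length and the depth of the library, and TPM was used only for its total. The effective transcript length in bases was used in 1 alternative.

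Expected counts were rounded, filtered with filterByExpr (minimum count 10, minimum total count 15, 13549 of 24411 genes kept), scaled with TMM factors and tested with edgeR 4.0.16 in R 4.3.3. The fold-change scale of the test was checked on counts simulated with equal spread in both groups. All p-values were adjusted over the tested genes. The alternatives were DESeq2 1.42.0, limma 3.58.1 on log2(FPKM + 1) or log2(FPKM + 0.1), other scalings and filters, a replicate block and each library left out. Summing Obox1 and Obox2, the alternatives for Obox7, and Obox7 counted as maternal were added after the values were seen. Sequences were aligned with Biopython 1.88. Named genes were all Obox rows, the 2 most abundant genes of each list and those past both thresholds, the 2 nearest profiles to each member among genes averaging 1 FPKM or more, and the genes flanking the cluster. The members and lists were chosen with earlier results of these data known. Depth limits counting error only, and PCR copies were counted like molecules.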

Additional observations from a re-analysis of the deposited data

How the results depend on the processing

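Obox5 kept its direction under every alternative run, with a log2FC from 1.33 to 3.02. While all libraries were kept, the adjusted p of Obox5 lay between 0.00747 and 0.411, both by edgeR. It passed both thresholds with DESeq2 on the same genes (1.94, adjusted p = 0.0112), over every gene with at least 1 count (1.94) and with transcript lengths (1.94), and in edgeR without the filter on low counts (1.93, adjusted p = 0.00747). Obox6 kept its direction too, from -1.36 to -0.78 with each library left out, with an adjusted p of at least 0.0752 while all libraries were kept. With each library left out, Obox1 ranged from 0.32 to 1.23, Obox2 from 0.025 to 1.14, Obox7 from 0.14 to 1.15, Obox3 from -0.091 to 0.13 and Obox5 from 1.33 to 3.02. Obox3 was on the other side of 0 with DESeq2 on the same genes (-0.0060), without its filter (-0.0054) and with lengths (-0.0047), and in edgeR with DESeq2's size factors (-0.0060). The cause of these changes was not tested.

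All genes called numbered 95 higher and 471 lower with DESeq2 on the same genes, 87 and 437 over every gene with a count, 83 and 429 with lengths, 165 and 479 in edgeR without the filter, and from 1 to 2148 higher and from 1 to 2065 lower with each library left out. The shared replicate numbers mark no common source in the labels. The deviations of replicate 1 in both groups had a correlation of -0.034 over genes, and the replicate block gave 12 genes higher and 32 lower and called 0 Obox genes, with a log2FC of 2.16 for Obox5 (adjusted p = 0.159 by edgeR).

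The difference between zygotic and maternal members lay between -2.52 and -0.89 as single libraries were left out, and was -1.46 with Obox7 counted as maternal. The median log2FC of the other homeobox genes was 0.023 with DESeq2 on all genes, 0.026 with lengths, 0.25 and 0.39 with limma on log2(FPKM + 1) and log2(FPKM + 0.1), 0.26 with library totals, 0.031 without the filter and 0.21 with at least 10 counts in every library, and from -0.063 to 0.26 with each library left out. These ranges were from -0.58 to -0.16 for ZGA regulators, from 0.42 to 1.68 for maternal transcripts and from 0.22 to 1.23 for two-cell transcripts, with the value nearest 0 without DMSO replicate 1 and the farthest without DMSO replicate 2 in these 3 lists. The median of all tested genes was 0.17 with library totals, and from -0.013 to 0.22 with each library left out. Of 198 alternative values, 147 kept their direction and their side of the threshold or, without a test, moved by less than the spread between replicates (counts: by under 1.5 times).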
